A study of Drosophila melanogaster with 2 samples.

Results

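Single-direction protein-coding promoter peaks are sites of anti-GFP ChIP-seq signal that lie beside a protein-coding start with no protein-coding start on the opposite strand nearby. A peak was taken when its summit, the position of highest signal, lay within 500 bp of protein-coding transcript starts that were all on one strand, and when the nearest start of any kind was protein-coding. This held for 1241 of the 4565 peaks on the assembled arms (27.2%, 95% Wilson interval 25.9 to 28.5%), out of 4590 in the pooled list. Of the other peaks, 716 lay at divergent promoters, with protein-coding starts on both strands within 500 bp, 144 had a non-coding start as the nearest start, and 2464 lay away from starts. Intervals over peaks cover counting error only.

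The samples were 2 biological replicates of whole Drosophila melanogaster embryos, aged 0 to 24 h, of a transgenic strain that expresses the homeodomain protein H2.0 fused to eGFP. Chromatin was sheared by sonication to 200 to 800 bp and precipitated with an antibody to GFP. There was 1 group, with the fusion in both replicates, and no second condition, so no test over samples was possible. The sequences that drive the fusion are not given in the labels, the embryos cover all of embryogenesis, and no control library entered the analysis, so a peak is a site of signal and binding of H2.0 there was not tested. Reads were not analysed and depth is unknown.

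The homeobox gene H2.0 is known for its expression in developing gut muscle. Homeodomains recognise short AT-rich sites, often with a TAATTA core. Promoters of widely expressed fly genes often carry the DNA replication-related element (DRE), bound by Dref, or the site of M1BP, whereas many developmental promoters carry an initiator and a downstream promoter element, and ribosomal protein genes start at a pyrimidine-rich TCT initiator.

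The sequences of a few members show how differently their summits are built. Each line gives 61 bases centred on the summit, read 5′ to 3′ on the strand of the gene, from the Release 6 (dm6) sequence of RefSeq. Capitals mark matches to the searched motifs. The windows shown were taken from members with a summit in both replicate lists, from the highest signal down, and leave out members of similar or higher signal whose window overlaps an exon (PNPase) or whose arm is not shown (mRpL41, px and CG1888). The first set holds the strongest of the rest: CG14100, Ugalt (a UDP-galactose transporter), CG18549 and gish (a casein kinase 1 family kinase).
CG14100 (chr3L:19590588-19590648, minus strand): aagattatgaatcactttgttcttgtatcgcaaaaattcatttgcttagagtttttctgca
Ugalt (chrX:2703861-2703921, minus strand): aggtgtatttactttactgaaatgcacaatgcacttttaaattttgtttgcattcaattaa
CG18549 (chr3R:12449134-12449194, plus strand): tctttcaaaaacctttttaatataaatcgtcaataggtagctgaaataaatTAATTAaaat
gish (chr3R:16280703-16280763, plus strand): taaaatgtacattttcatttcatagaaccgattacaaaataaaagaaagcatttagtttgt
The second set comes from cytosolic ribosomal protein genes of high signal, without and with a DRE.
RpL23A (chr3L:1668715-1668775, minus strand): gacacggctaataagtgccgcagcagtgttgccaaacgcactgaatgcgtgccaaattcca
RpS28b (chrX:9554561-9554621, plus strand): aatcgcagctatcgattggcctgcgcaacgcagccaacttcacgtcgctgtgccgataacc
RpL8 (chr3L:2587380-2587440, plus strand): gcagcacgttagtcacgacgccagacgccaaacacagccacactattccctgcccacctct
RpL27 (chr3R:25685072-25685132, minus strand): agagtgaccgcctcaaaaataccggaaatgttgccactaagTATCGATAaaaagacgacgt
RpS12 (chr3L:13023267-13023327, plus strand): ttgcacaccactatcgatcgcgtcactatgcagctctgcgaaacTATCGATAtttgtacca
The third set holds an M1BP match, at beta-PheRS (a subunit of phenylalanyl-tRNA synthetase) and at crb (crumbs, an apical polarity protein), or a Mef2 match, at CG11857 and PAN3 (part of a poly(A) nuclease).
beta-PheRS (chr3R:24252723-24252783, minus strand): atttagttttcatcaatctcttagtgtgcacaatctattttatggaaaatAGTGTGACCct
crb (chr3R:24294977-24295037, plus strand): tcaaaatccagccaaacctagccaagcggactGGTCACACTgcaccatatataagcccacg
CG11857 (chr3R:25258794-25258854, plus strand): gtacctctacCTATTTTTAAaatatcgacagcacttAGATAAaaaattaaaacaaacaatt
PAN3 (chr3L:3081393-3081453, plus strand): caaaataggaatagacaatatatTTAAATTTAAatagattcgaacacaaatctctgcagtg
In these windows GC content was 29.5% at CG14100, 26.2% at Ugalt, 19.7% at CG18549 and 23.0% at gish, against 52.5% at RpL23A, 57.4% at RpS28b 59.0% at RpL8, 42.6% at RpL27 and 45.9% at RpS12. Each of the 5 ribosomal protein windows shown was richer in GC than the 4 strong windows shown, which are examples and not a sample of all members.

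Most members lay upstream of the start. The median summit was 125 bp upstream (position -125, quartiles -224 and -35), 1018 summits were upstream (82.0%, 79.8 to 84.1%) and 223 were downstream. Between 200 and 1 bp upstream lay 650 summits (52.4%), and 194 (15.6%) were within 50 bp of the start. In replicate 1's own list the median of the 833 members was -151 and 85.7% were upstream, and in replicate 2's own list the median of 912 members was -122.5 and 85.5% were upstream. The shares upstream differed little between the replicates, but 9.48% of replicate 1's members and 16.4% of replicate 2's lay within 50 bp of the start. The 656 members with a summit in both lists had replicate summits a median of 16.5 bp apart, on the same side of the start in 98.0%.

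**Figure D1:**
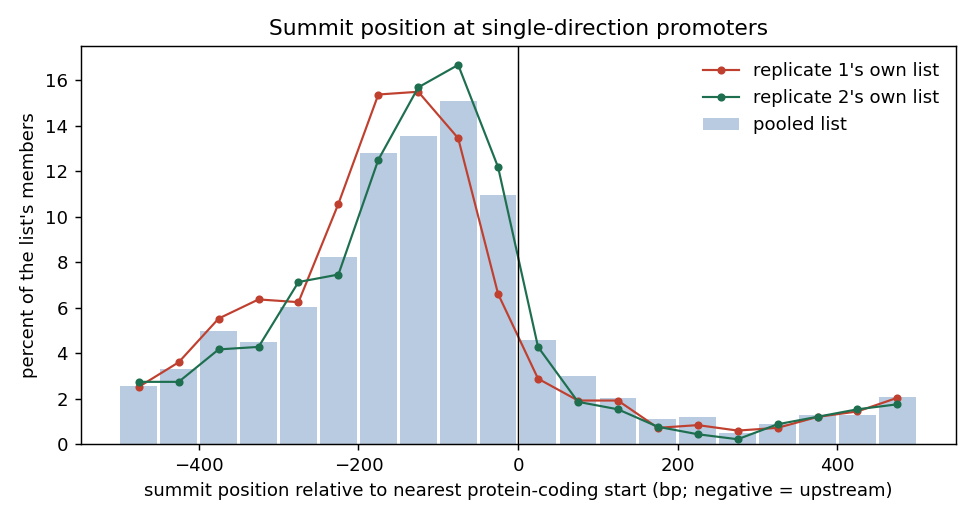
Position of the summit relative to the nearest protein-coding start (x axis, bp, 50-bp bins; negative is upstream) against the percent of each list's members (y axis). Bars are the pooled list and lines the 2 replicates' own lists; the pooled list is highest in the bin from -100 to -50, with 187 members, and replicate 2 holds more of its members next to the start than replicate 1.

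The median position of the weakest members was nearer the start than that of the strongest. With the members split into 4 signal groups of about 310 each, the median position was -160 in the highest group, -137 and -108 in the next ones, and -58 in the lowest. The share upstream was 87.1%, 86.8% and 85.5% in the first 3 groups and 68.8% in the lowest. Positions carry a sign, so the downstream summits of the lowest group (quartiles -197.5 and 38.5) move its median toward the start. Distances without sign were not compared between the groups. The median signal was 107 for upstream summits and 76.4 for downstream ones. By 50-bp bin the median signal was highest from -200 to -150, at 149, and was 98.4 to 100.5 in the 3 bins farthest upstream, so it did not go on increasing with distance. These are descriptions of one pooled list; the lowest group is also where few members had a summit in both replicate lists (2.89%, against 99.7% in the highest).

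By annotation, 590 summits were intergenic (47.5%), 392 were in introns (31.6%), 191 in 5′ UTRs (15.4%), 26 in 3′ UTRs, 17 in coding exons and 25 in other exons. Inner starts were common: 431 members lay at a start other than the 5′-most of a gene with several starts, 309 of them over 1000 bp from it. These 309 had a median signal of 107. The members belonged to 1138 genes, of which 1053 had 1 peak, 72 had 2, 9 had 3, 3 had 4 and 1 had 5. The members had 1216 distinct nearest starts, so some genes had several peaks at the same start.

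Ptpmeg2, a protein tyrosine phosphatase gene on X, held the 5. Its summits at successive starts had signals of 278, 457, 53.5, 442 and 88.5, at positions -197, -189, -68, -162 and 135. Rtnl1, a reticulon that shapes the endoplasmic reticulum, had 928, 121, 118 and 320, all in introns at positions -282, -360, -268 and -239. Moe (moesin, a membrane to actin linker) had 195, 130, 118 and 80.3, and dnc (the dunce cAMP phosphodiesterase) had 278, 68.7, 405 and 150. Within each of these genes the strongest peak had over 2 times the signal of the weakest. The genes with 3 peaks included CG5004, Drat, Exn, mtd, pyd (the fly ZO-1 junction protein) and shot (a spectraplakin). The others were spi (the EGF receptor ligand spitz), spri and ush (a GATA cofactor). Signals ran from 2.98 (spi) to 264 (also spi). In Drat, Exn, mtd, pyd, spi and spri, 2 of the 3 summits had the same nearest start, so their peaks do not stand for 3 separate starts.

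Genes with a member peak were long. Their median span was 5.30 kb and 55.4% had several starts, against 2.46 kb and 35.0% for genes at divergent promoter peaks. The 8962 genes with a single-direction 5′-most start and no summit within 500 bp had a median of 2.00 kb, and 21.9% had several starts. A gene with more starts offers more windows to the rule. By arm, X held 241 members (19.4% of members, against 15.7% of protein-coding genes), while 3R held 266 (21.4%, against 24.5%), 3L 261, 2R 251, 2L 219, chromosome 4 had 3 and Y had 0.

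The members' signal was between that of divergent promoter peaks and that of peaks away from starts. In the pooled list the median was 101 (quartiles 71.8 and 173.5, range 2.18 to 2069), against 110 at divergent promoters, 94.1 at non-coding starts and 88.98 away from starts. The ratio of medians of members to peaks away from starts was 1.14 in the pooled list, 1.16 in replicate 1 and 1.13 in replicate 2. The ratio to divergent promoter peaks was 0.916, 0.936 and 0.949 in the same lists. Both directions were therefore the same in each replicate's own list, although the quartile ranges overlap widely. For non-coding starts the ratio was 1.07 in the pooled list, 1.00 in replicate 1 and 0.895 in replicate 2, so its direction differed between the replicates.

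**Figure D2:**
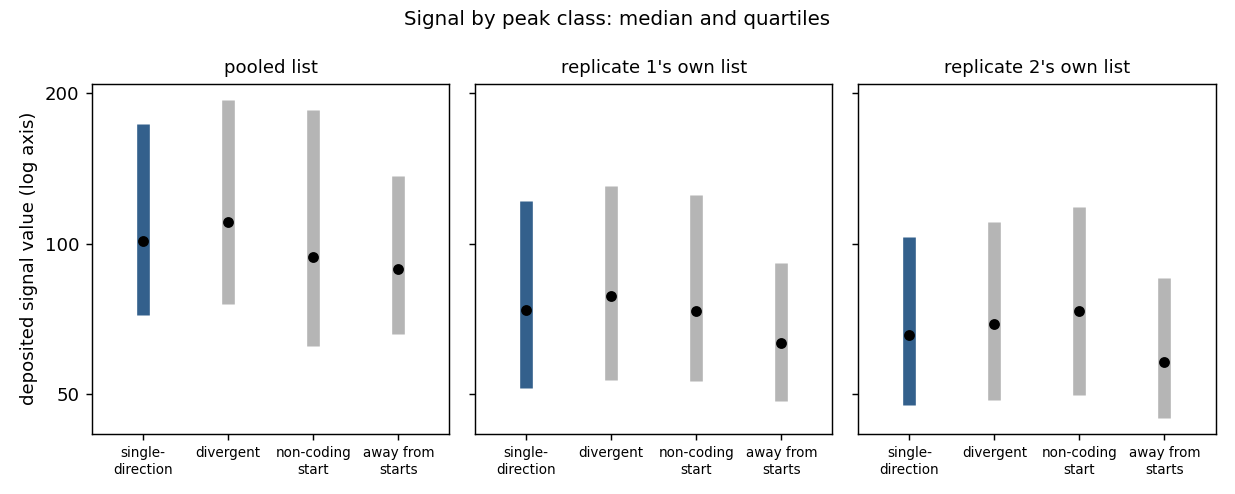
Deposited signal value (y axis, log scale) of peaks by class (x axis), in the pooled list and in each replicate's own list. Dots are medians and bars run between the quartiles; the members' median is 101 in the pooled list, 73.6 in replicate 1 and 65.5 in replicate 2, each above the peaks away from starts and below the divergent promoter peaks.

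The strongest members with a summit in both replicate lists belonged to genes of varied function. CG14100 had a pooled signal of 2069, and 1069 and 1009.5 in the ranked lists of replicates 1 and 2, with its summit 94 bp upstream. Ugalt had 1983, 978 and 1009, 39 bp upstream. mRpL41, a mitochondrial ribosomal protein gene, had 1881, 922 and 961, 133 bp upstream. The replicates gave close values at each of these. PNPase (a polynucleotide phosphorylase, 1353), px (plexus, known from wing vein formation, 1194), CG18549 (1175), CG1888 (1069), gish (1062) and SLC5A11 (1061) came next. Fkbp14 (an FK506-binding prolyl isomerase) had 1059, GstE13 (a glutathione S-transferase) 983 and Tina-1 959. RluA-1 (884), MFS10 (881), CG13921 (864), Sox14 (a Sox transcription factor, 839), TRAM (834), CG11857 (821) and CG1142 (785) completed the first 20 with Rtnl1. Of these 20, PNPase, GstE13 and TRAM had the summit downstream, 79, 72 and 92 bp inside the 5′ UTR. Among the 100 members of highest signal, the farthest upstream were NK7.1 (-385) and CG5953 (-372), and the farthest downstream were CG31612 (497) and ph-p (a Polycomb group gene, 472).

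Of the 27 gene classes, cytosolic ribosomal protein genes had the largest share with a member peak. Of 88 such genes, 32 had a member peak (36.4%, 27.1 to 46.8%), 25 in replicate 1's list and 32 in replicate 2's. Over all 13968 protein-coding genes the share was 8.15%. Of the 54 ribosomal protein genes whose 5′-most start has no opposite start within 500 bp, 31 had one (57.4%), against 10.1% of the 10164 such genes in all. At divergent promoter peaks lay 28 of the 88 ribosomal protein genes (31.8%), against 10.1% of all protein-coding genes. A gene could be in both counts. No test was made of these differences, and the classes were built from gene symbols.

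**Figure D3:**
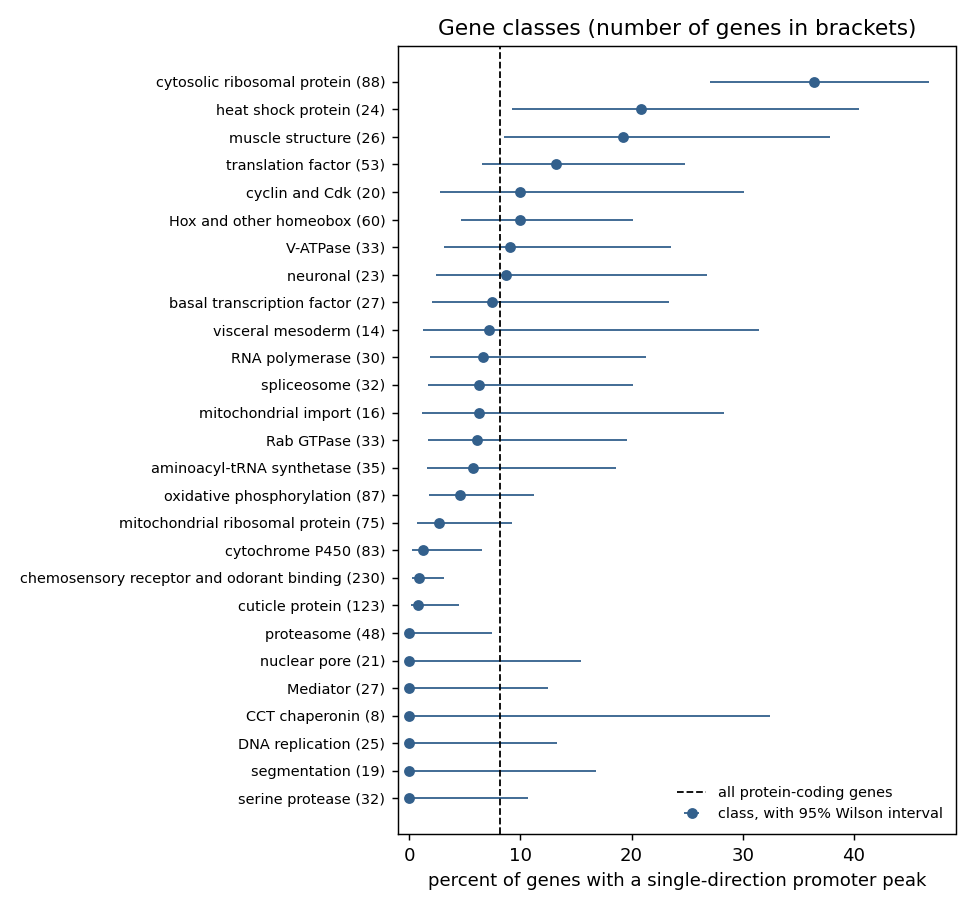
Percent of the genes of each class with a single-direction promoter peak (x axis) for 27 classes (y axis, number of genes in brackets). Dots are shares, lines 95% Wilson intervals and the dashed line the 8.15% of all protein-coding genes; cytosolic ribosomal protein genes (36.4%) are farthest to the right.

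The ribosomal protein peaks sat close to the start. Their 33 peaks had a median position of -30 and 20 of them (60.6%) were within 50 bp of the start, against 14.4% of the 1208 other members. Their median signal was 134, against 99.9 for the other members, and 72.7% had a summit in both replicate lists, against 52.3%. Median GC content at the summit was 47.5%, against 34.7%. The highest was RpL23A, with a pooled signal of 303, and 122 and 180 in replicates 1 and 2. RpS28b had 241, 101 and 144, and RpL8 had 216, 101 and 139. In all 3 the value of replicate 2 was higher. A DRE lay within 50 bp of the summit in 8 of the 33, an M1BP match in 3, and a TCT initiator at the start in 5. Among the 1208 other members these counts were 24, 13 and 4.

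Other classes held few members. Translation factors had 7 of 53 genes, led by eEF1gamma (341, with 148 and 185 in replicates 1 and 2), eEF1alpha1 (226, with 107 and 107) and eIF5B (219, with 147 and 81.5). Heat shock proteins had 5 of 24 (4 in replicate 1's list and 3 in replicate 2's), with Hsp27 at 572 (277 and 295), Hsp83 at 229 and Hsp26 at 174. Muscle structure genes had 5 of 26, but 3 in each replicate's own list and 3 in the conservative list. The 5 were sls (the titin-like sallimus, 281), Msp300 (a nuclear anchor, 238), Act87E (75.1), Tm1 (72.2 and a second peak of 7.12) and Zasp52 (52.7). Only sls and Msp300 of these had a summit in both replicate lists. Homeobox genes had 6 of 60: NK7.1 (436), tin (tinman, needed for heart and visceral mesoderm, 381), Dll (235), bcd (122), Dfd (73.4) and so (66.6). The homeobox share was near that of all genes, also among genes whose 5′-most start has no opposite start within 500 bp (10.3%, against 10.1%).

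Of 14 visceral mesoderm genes, only org-1, a T-box factor of muscle founder cells, had a member peak, at 588 pooled and 293 and 308 in the replicates, 364 bp upstream. H2.0 itself and bap were on that list and had none. The class share was 7.14%, near the 8.15% of all genes. Mitochondrial ribosomal protein genes had 2 of 75, while 21 (28.0%) lay at divergent promoter peaks, against 10.1% of all protein-coding genes. Of 21 class genes whose 5′-most start has no opposite start within 500 bp, 9.52% had a member, near the 10.1% of all such genes. Oxidative phosphorylation genes had 4 of 87 (2 in each replicate's own list), cytochrome P450 genes 1 of 83 (Cyp12c1, 48.0), chemosensory genes 2 of 230 and cuticle protein genes 1 of 123 (TwdlB, 69.3). Proteasome, nuclear pore, Mediator, CCT chaperonin, DNA replication, segmentation and digestive serine protease genes had 0 in the pooled list. The rule reached few of some classes: 8 of 21 nuclear pore and 10 of 27 Mediator genes have no opposite start within 500 bp of their 5′-most start. At divergent promoter peaks lay 28.6% of nuclear pore, 33.3% of Mediator, 16% of DNA replication and 8.33% of proteasome genes. The same held for 2 of 8 CCT chaperonin genes, and for 0 segmentation and serine protease genes. For classes with few members the intervals are wide, and most include the 8.15% of all genes. Those of chemosensory (0.239 to 3.11%), cuticle protein (0.144 to 4.46%), cytochrome P450 (0.213 to 6.51%) and proteasome genes (0 to 7.41%) lie below it. Those of heat shock (9.24 to 40.5%) and muscle structure genes (8.51 to 37.9%) lie above it. No test was made of these differences.

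Among the 10 motifs searched within 50 bp of the summit on both strands, the DRE (TATCGATA) and the M1BP site (GGTCACACT) were more frequent at the summits than in windows 400 bp away. The DRE was in 2.58% of members (1.83 to 3.62%), against 0.725% in windows 400 bp upstream of the summit, 0.161% in windows 400 bp downstream and 1.07% at single-direction starts without a summit. Over the 5′-most starts of all protein-coding genes it was in 1.38%, and at divergent promoter peaks in 5.17%. The M1BP site was in 1.29% of members (0.795 to 2.08%), against 0.242% upstream, 0.403% downstream, 0.301% at starts without a summit and 0.694% over all starts. Both are small counts, 32 and 16 members. In 50-bp bins around the summit, M1BP matches were in 6 members just upstream and 11 just downstream, in 11 members from 50 to 100 bp downstream and in 14 from 100 to 150 bp downstream, so they did not centre on the summit. DRE matches were in 21 members just upstream of the summit and in 11 just downstream, then in 15 and 11 in the same outer bins.

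The windows at starts without a summit and over all starts were centred 125 bp upstream of the start, whereas the summits of members with a DRE and with an M1BP site had medians of -35.5 and -61.5, so these windows cover another place. With windows centred 50 bp upstream of the start in both sets, chosen after these values were seen, the DRE was in 4.77% of the members' 1216 starts (3.71 to 6.12%), against 4.14% of the starts without a summit (3.75 to 4.57%). M1BP was in 1.81% (1.2 to 2.7%), against 1.33% (1.1 to 1.6%). These intervals overlap, so with the place held alike no difference between starts with and without a member was resolved for either motif. The kind of start was not held alike. The starts without a summit were 5′-most ones, whereas the members' starts included inner ones. With 5′-most starts only, the shares at the members' summits were 3.66% for DRE and 1.72% for M1BP. A comparison of 5′-most starts alone at this place was not made. The strongest members with a DRE were Alg3 (a mannosyltransferase of N-glycan synthesis), with 475 pooled and 212 and 261 in replicates 1 and 2, and eEF1gamma, given above. Those with an M1BP site were RpL27A, with 187 pooled and 62.8 and 125 in the replicates, and RpS23, with 151 pooled and 69.0 and 89.9. At each of these 4 the value of replicate 2 was the higher one.

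The AT-rich homeodomain sequences TAATTA and TTTATTA were no more frequent at the pooled summits than at starts without a summit, but the replicates' own lists did not all keep this direction. TAATTA was in 6.93% of members, against 9.27% in the windows upstream, 3.63% downstream, 9.14% at starts without a summit, 10.1% over all starts and 13.0% at divergent promoter peaks. TTTATTA was in 8.14%, against 6.85%, 3.06%, 8.22%, 9.35% and 9.64% in the same order. In the lists of replicates 1 and 2 TAATTA was in 9.24% and 7.46% of members and TTTATTA in 9.84% and 8.55%. The Mef2 site was in 6.20%, against 5.56% upstream, 1.69% downstream, 5.68% at starts without a summit and 7.04% over all starts. In the replicates' own lists it was in 8.28% and 7.24%, above the share over all starts, whereas the pooled share was below it. GAGAG, the core of the GAGA factor site, was in 9.43% of members, against 13.9% upstream, 15.6% downstream, 14.4% at starts without a summit and 13.0% over all starts. AGATAA or TGATAA was in 13.8% of members (16.7% over all starts; 17.8% and 14.4% in the lists of replicates 1 and 2), CAGCTG in 5.32% (4.24%; 3.36% and 4.71% in the lists of replicates 1 and 2, so its direction turned in replicate 1), CAGGTAG in 0.242% (0.566%) and the AP-1 sites TGAGTCA or TGACTCA in 0.645% (0.766%; 0.840% and 0.658% in the same lists). For CAGCTG, the interval in replicate 1's list (2.34 to 4.82%) includes the share over all starts. The same holds for AGATAA or TGATAA, AP-1 and TTTATTA in replicate 1's list and for Mef2 in both lists. The intervals of TAATTA in replicate 1's list and of TTTATTA in both lists include the share at starts without a summit. GC content differed between the windows, at 37.0% in members, 39.3% upstream and 46.5% downstream, and its part in the shares was not tested. A TAATTA match can overlap a Mef2 or TTTATTA match.

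**Figure D4:**
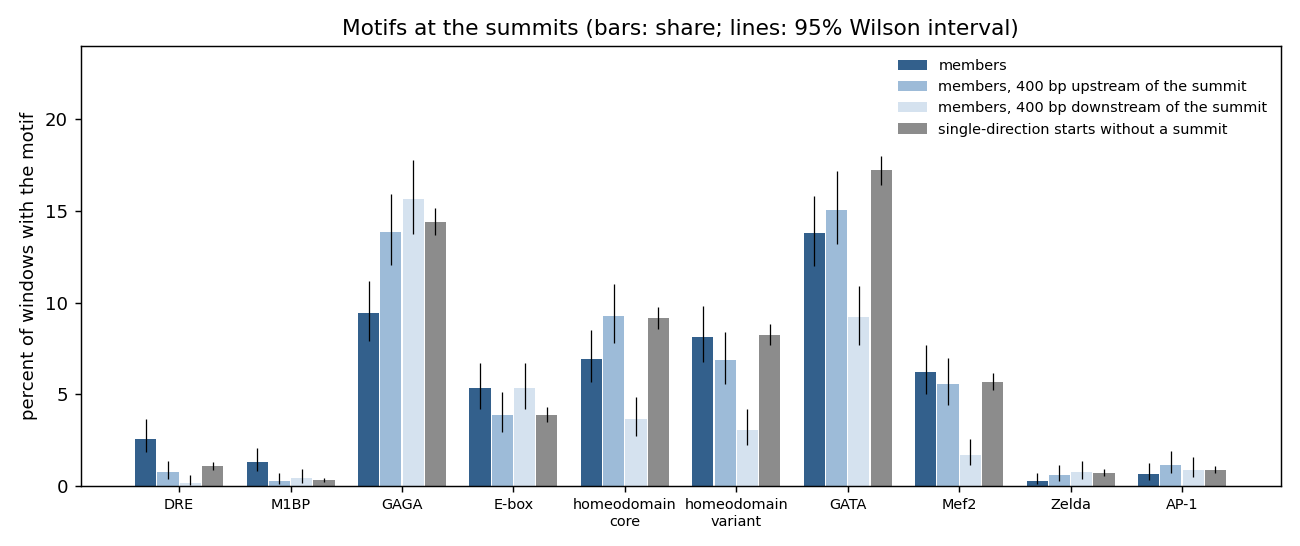
Percent of windows of 50 bp to each side that hold each motif (y axis) at the members' summits, 400 bp upstream and 400 bp downstream of them, and at single-direction starts without a summit. Homeodomain core and variant are TAATTA and TTTATTA. Bars are shares and lines 95% Wilson intervals; DRE (2.58%) and M1BP (1.29%) are higher at the summits than in the windows 400 bp away and at starts without a summit, whose windows are centred 125 bp upstream of the start, and GAGA (9.43%) is lower.

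Strong and weak members differed in sequence. Across the 4 signal groups, strongest first, median GC content was 29.7%, 33.7%, 37.6% and 43.6%. TAATTA was in 10.6% of the highest group and 3.22% of the lowest, TTTATTA in 14.2% and 4.18%, and the Mef2 site in 9.03% and 3.86%. GAGAG ran the other way, with 6.13% and 14.8%, as did CAGCTG with 2.58% and 8.36%. GC content moved with these shares and its part in them was not tested.

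Of the elements at the start itself, TCAGT within 6 bp of the start was at 13.9% of the members' 1216 starts, against 3.81% at divergent promoter peaks and 10.6% at single-direction starts without a summit. TATAAA between 40 and 20 bp upstream was at 3.70% of the members' starts, against 1.69% and 9.01%. GACGTG between 18 and 36 bp downstream was at 1.48%, against 0.282% and 0.769%. In replicate 1's and replicate 2's own lists TCAGT was at 14.4% and 13.3%, and TATAAA at 3.17% and 2.45%. The starts without a summit were again 5′-most ones only, whereas the members' starts included inner ones.

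Presence in the replicate lists was uneven. A summit within 200 bp in both lists was found for 656 members (52.9%, 50.1 to 55.6%), against 58.1% of divergent promoter peaks and 45.0% of peaks away from starts. Replicate 1's list alone held 161, replicate 2's alone 197, and 227 were in neither. Of 1241 members, 1215 had a ranked peak within 200 bp in both replicates, and the SD of their log2 ratio of signal was 0.65.

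The balance of the replicates moved with position and sequence, a pattern examined after the values had been seen. Signal is not scaled between lists, so each group's median log2 ratio of replicate 1 to replicate 2 is read against the median of all members, 0.07. The median was 0.22 for summits 500 to 201 bp upstream and 0.17 for those 200 to 101 bp upstream. It was -0.14 for 100 to 51 bp upstream, -0.28 for 50 to 1 bp upstream and -0.21 for 1 to 50 bp downstream. Divergent promoter peaks gave 0.16 for summits over 100 bp upstream and -0.22 within 50 bp, so the pattern was not particular to single-direction promoters. By GC content at the summit, in 4 equal groups, the medians from the lowest to the highest GC content were 0.24, 0.17, -0.02 and -0.26.

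Replicate 2 was the higher one at 28 of 32 ribosomal protein members with both values (median -0.50) and at 27 of 31 members with a DRE (median -0.57), against 537 of 1215 members in all (44.2%). It was also the higher one at 134 of 203 members (66.0%) outside the ribosomal protein class within 60 bp of the start, a limit set after values were seen, with a median of -0.18. Within the group of highest GC content the median was -0.15 for summits over 100 bp upstream and -0.37 for the 112 within 50 bp. In the third group these medians were 0.08 and -0.15 (47 within 50 bp), and in the second 0.25 and -0.13 (17). The lowest group ran the other way, with 0.28 and 0.48, on 12 summits within 50 bp. Among the 1176 members with both values and no other pooled summit within 250 bp, the median was 0.17 over 100 bp upstream and -0.28 within 50 bp. With 2 replicates, a difference between embryo collections and one between library preparations cannot be told apart.

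**Figure D5:**
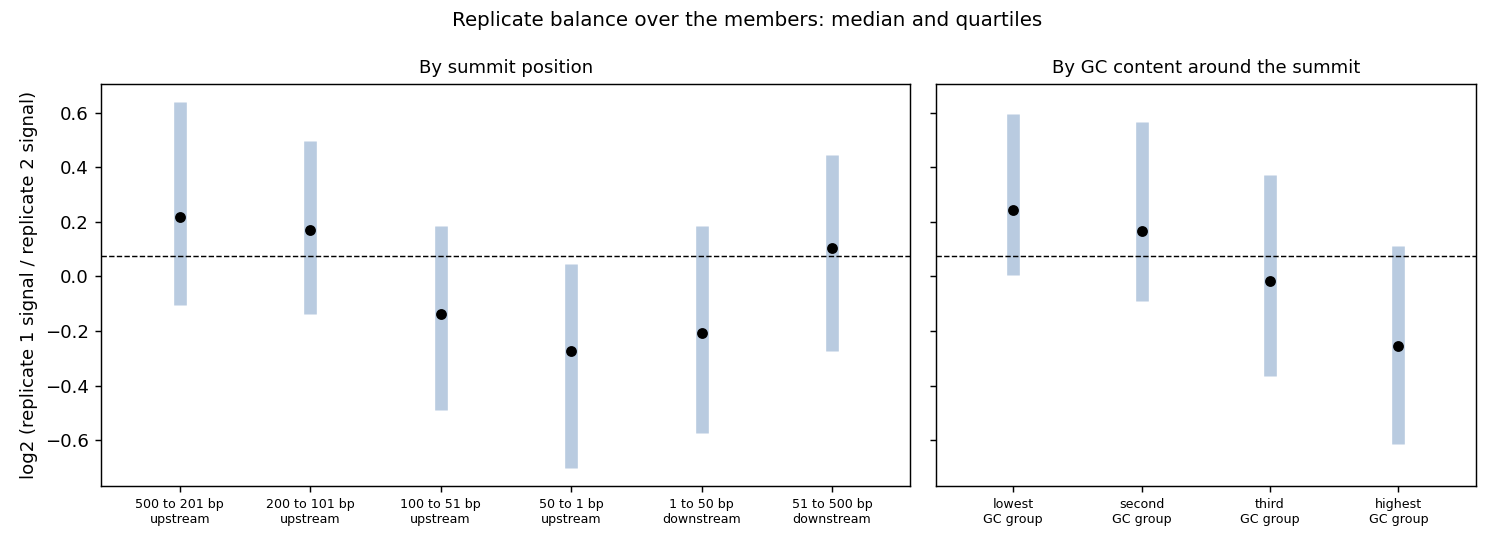
Log2 ratio of replicate 1 to replicate 2 signal (y axis) for the 1215 members with both values, by summit position (left) and by 4 groups of GC content around the summit, lowest to highest (right). Dots are medians, bars run between the quartiles and the dashed line is the median of all members, 0.07; the medians are lowest for summits 50 to 1 bp upstream (-0.28) and for the highest GC content (-0.26).

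At the edge of the rule, the 58 members 451 to 500 bp from the start had a median signal of 86.0, and 62 peaks 501 to 550 bp away, outside the rule, had 92.8. The members nearest inside the limit were at jar (position -500, signal 203) and pAbp (499, 298), and the nearest outside were at Ada2b (501, 49.2) and CG1888 (501, 72.8). Beside another pooled summit within 250 bp lay 45 members, with a median signal of 48.0, against 103 for the rest. All 20 members with a signal under 25 were among them.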

How the data were processed

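The authors deposited narrowPeak lists of anti-GFP ChIP-seq peaks on dm6 for each of 2 replicates and for both together, per the labels. The deposited signal value is the caller's enrichment signal, the deposited score is the authors' IDR score (capped at 1000; lowest member 831), and the deposited −log10 q-value was used only as a limit of 0.05. For the aligner and peak caller: not given in the sources used here. Signal is not scaled between lists.

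Summits of the pooled thresholded list were placed on Ensembl release 115 starts of the same assembly, without transposable elements, with Python 3.11.15, numpy 2.4.6 and pandas 2.3.3. The class and position of summits and the count of a planted DRE were tested on simulated data, and the other steps were not. A replicate's value is the nearest summit within 200 bp in its ranked list. This replaced the strongest summit after values were seen, because that gave weak members a neighbour's signal. It reduced but did not remove this: 37 of 1241 members have a ranked summit in at least 1 replicate that is also the value of another pooled peak. Windows at starts were centred on -125. Sequences of members on 2R are not shown. Named genes were the 20 of highest signal, up to 3 a class and 2 a motif, those at the edge of the rule, genes with 3 or more peaks, and the farthest among the 100 strongest.

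The members and lists were chosen with earlier results of these data known. The symbol patterns of 5 of the 27 gene classes (cytosolic ribosomal protein, aminoacyl-tRNA synthetase, Rab GTPase, cytochrome P450, cuticle protein) were corrected after their counts had been seen, because they missed genes or caught unrelated ones. The shares by signal group, the contrast of ribosomal protein with other members, the neighbouring summits and the replicate balance were also added after values were seen.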

Additional observations from a re-analysis of the deposited data

How the results depend on the processing

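No paired analysis was possible because there was 1 group and no result came from a test. Of 107 alternative values of the main results, 64 stayed within the spread between replicates or within 1.5 times a count and 43 moved; of 377 for single classes and motifs, 270 stayed and 107 moved. A reversal was defined for the median position and the signal ratio alone, and none occurred there. Against the share over all starts, CAGCTG turned in replicate 1's list (3.36%, against 4.24%), as did TTTATTA (9.84%, against 9.35%), the GATA site (17.8%, against 16.7%) and AP-1 (0.840%, against 0.766%), and Mef2 turned in both lists (8.28% and 7.24%, against 7.04%). In each of these cases the interval in the replicate's list includes the share over all starts, so no direction was resolved there. In the replicates' own lists the median position was -151 to -122.5, the share upstream 85.5 to 85.7%, the ratio of median signal to all other peaks 1.08 to 1.11, M1BP 0.840 to 0.877% and GAGAG 8.40 to 9.54%. The ratio was 1.08 as reported and 1.45 when a q-value below 0.05 was required of the members alone, as planned. That limit drops weak members but no weak comparison peak; an alternative added after this value had been seen, with the limit on members and other peaks alike, gave 1.11. Under that limit 86.9% were upstream, 71.7% were in both replicate lists, and M1BP was at 0.999% and GAGAG at 7.103%, with either form. With a limit of 250 bp to the start the median was -87, 84.2% were upstream, the ratio was 1.05, DRE 3.92% and M1BP 1.70%. With 1000 bp, 74.4% were upstream, 18 ribosomal protein genes in place of 32 had a member, DRE was at 1.45% and M1BP at 0.896%. With 5′-most starts only, 79.2% were upstream, with DRE at 3.66%, M1BP at 1.72% and GAGAG at 8.49%. With a stricter score limit (IDR of about 0.005), 83.8% were upstream, 58.8% were in both lists, M1BP was at 1.17% and GAGAG at 8.26%. M1BP was at 1.34% in the conservative list and 1.34% without members beside another summit. Windows of 100 bp to each side gave 4.35% for DRE, 2.66% for M1BP and 24.9% for GAGAG, and windows of 25 bp gave 1.37%, 0.322% and 5.16%. Windows centred 50 bp upstream of the members' starts gave 4.77% for DRE and 1.81% for M1BP. The M1BP spread between replicates is narrow, so most settings passed it.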
